A study of Mus musculus with 6 samples.

Results

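The plasminogen activator system was followed in the mammary tumors of BK5.ATF3 mice through 5 genes, chosen by their function and looked up by gene symbol. The members were the plasminogen activators *Plau* and *Plat*, the receptor *Plaur* and the serpin inhibitors *Serpine2* and *Serpinb2*, and all 5 were found among the 15280 genes of the expression table. The RNA-Seq libraries came from 3 parous BK5.ATF3 females, in which the bovine cytokeratin-5 promoter drives ATF3 in basal epithelial cells. Each mouse gave a library of its mammary tumor (T11035, T11640 and T9232) and a library of the normal, adjacent mammary gland (M11035, M11640 and M9232), so that n = 3 for each tissue and each tumor has a gland of the same animal, with the same number. Values of single libraries are given in this order of the mice throughout. Tumor onset was at 6 to 12 months, the tumors were taken at a length of 1.5 cm, and all females had raised a litter. Because every gland carried the transgene as well, the comparison is of tumor with transgenic gland, and no gland of a wild-type mouse was analysed here. *Atf3* itself had 4.47, 8.09 and 22.6 CPM (fragments of the gene scaled by library size) in the glands and 13.4, 18.3 and 19.3 CPM in the tumors. The tissues overlapped and *Atf3* was not called different (log2 fold change, log2FC, 0.80, adjusted p = 0.223, limma). Whether transcripts of the transgene are counted under *Atf3* was not tested.

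In this system, urokinase (uPA, from *Plau*) and tissue-type plasminogen activator (tPA, from *Plat*) cut the circulating zymogen plasminogen into plasmin, a broad serine protease that dissolves fibrin, degrades matrix proteins and activates latent metalloproteinases. The urokinase receptor (uPAR, from *Plaur*) holds uPA at the cell surface. Serpins trap the activators in covalent complexes that are then taken up by endocytic receptors, and the mammary gland is known to use plasminogen activation when it remodels after lactation.

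The depth was between 4750989 and 7806908 fragments on genes per library. A floor of 3 fragments, under which a gene was not taken as detected, corresponds to between 0.393 and 0.610 CPM, and it covers counting error only. The levels of cell type markers differed between the tissues. The 8 adipocyte markers summed to between 3296 and 6442 CPM in the glands and to between 149 and 207 CPM in the tumors, and the 6 basal epithelial markers to between 57.9 and 140 CPM in the glands and between 2035 and 2267 CPM in the tumors. Markers of B cells and T cells were lower in the tumors for all 6 genes of each list. The 6 skeletal muscle markers summed to 4017 and 1534 CPM in glands M11035 and M11640, but to 5.06 CPM in gland M9232 and to at most 15.1 CPM in the tumors, so these 2 glands stand apart. In tissue of this kind, a change in the number of cells that make a transcript cannot be told apart from a change in the transcript per cell.

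**Figure D1:**
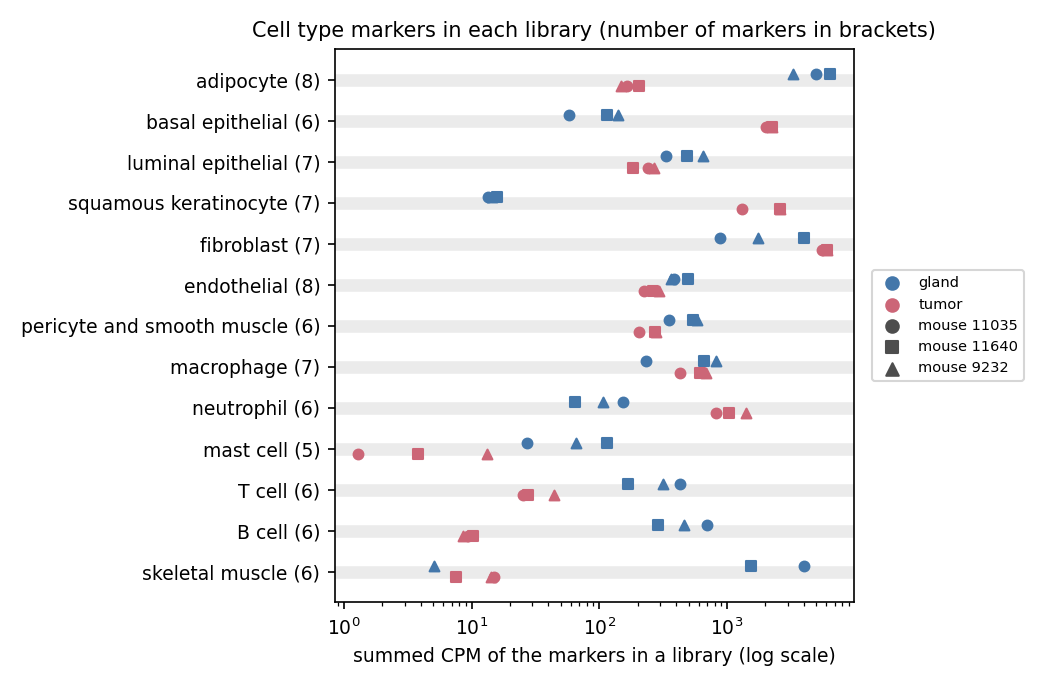
Summed CPM of each cell type marker list in each library, on a log scale, with glands in blue, tumors in red and 1 symbol per mouse. Adipocyte, B cell and T cell markers lie lower in all 3 tumors, basal epithelial, squamous and neutrophil markers lie higher, and skeletal muscle markers stand out in 2 glands.

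All 5 members were upregulated in the tumors. Tumors were compared with glands by limma on log2(CPM + 0.5) over all genes of the table, two-sided and with Benjamini-Hochberg adjustment, and a gene was called when its FC reached 2 or more with an FDR no higher than 0.05. By this rule 14.5% of all genes were upregulated and 13.7% were downregulated, and in 27.6% of all genes the 3 tumors lay above the 3 glands (26.3% lay below). For each of the 5 members, every tumor lay above every gland. The median log2 fold change of the 5 members was 2.35, beside -0.0028 over all genes. The inhibitors had larger fold changes than the activators and the receptor. *Serpinb2* came first with a fitted log2 fold change of 6.54, followed by *Serpine2* at 4.61, *Plaur* at 2.35, *Plau* at 2.19 and *Plat* at 1.76.

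**Figure D2:**
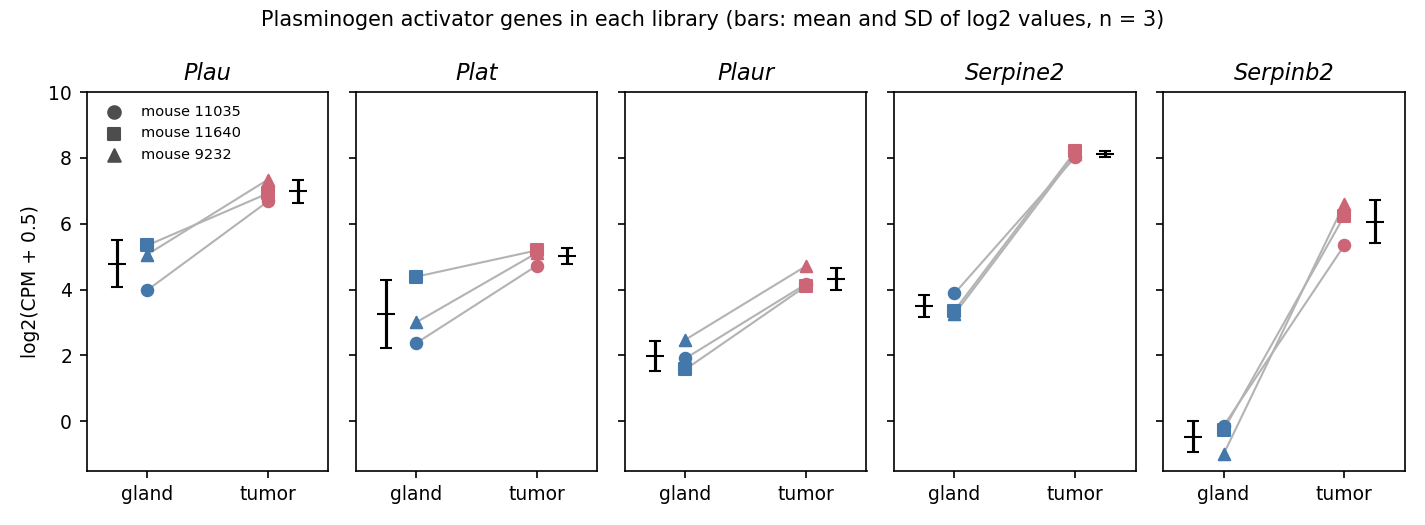
Expression of the 5 members in each library as log2(CPM + 0.5), with glands in blue and tumors in red, a line joining the tissues of a mouse, and black bars for the mean and SD of the log2 values (n = 3). In every panel the 3 tumors lie above the 3 glands, with the steepest lines for *Serpinb2* and *Serpine2* and the flattest for *Plat* between M11640 and T11640.

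*Plau*, which encodes the activator that works on cell surfaces, lies on chromosome 14 (mm9, 21655884 to 21662610, plus strand). It had 15.2, 40.0 and 32.8 CPM in the glands and 102, 121 and 161 CPM in the tumors. The lowest tumor was above the highest gland, and gland M11035 was the lowest library. The mean was 29.4 ± 12.7 CPM (SD, n = 3) in the glands and 128 ± 30.5 CPM in the tumors (log2FC 2.19, SE 0.34, adjusted p = 0.00118, limma). Within mice the log2 difference was 2.70, 1.58 and 2.28. A larger log2FC was found for 5.78% of all genes.

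*Plat* encodes the activator best known from blood clot lysis, which endothelial cells release. The gene lies on chromosome 8 (mm9, 23868216 to 23893319, plus strand). Its levels were 4.68, 20.5 and 7.52 CPM in the glands and 26.1, 36.0 and 34.2 CPM in the tumors. The tissues did not overlap, but gland M11640 came close to tumor T11035. From 10.9 ± 8.42 CPM (SD, n = 3) in the glands to 32.1 ± 5.31 CPM in the tumors, the log2FC was 1.76 (SE 0.45, adjusted p = 0.0139, limma), the smallest of the 5 members. Within mice the log2 difference was 2.36, 0.80 and 2.11. The call was lost without tumor T11640 (log2FC 1.67, adjusted p = 0.0593, limma) and without tumor T9232 (1.71, adjusted p = 0.0545), and over all alternatives the adjusted p ran from 5.43e-04 to 0.0593. Its log2FC was 1.31 without gland M11035 and 2.32 without gland M11640.

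*Plaur*, the gene of the uPA receptor, lies on chromosome 7 (mm9, 25247519 to 25260892, plus strand). The glands had 3.25, 2.48 and 5.06 CPM, which rest on 16, 15 and 37 fragments, and the tumors had 17.5, 16.8 and 25.8 CPM. All tumors were higher than all glands, and M9232 and T9232, of the same mouse, were the highest of their tissues. The mean rose from 3.6 ± 1.3 CPM (SD, n = 3) to 20.0 ± 5.0 CPM (log2FC 2.35, SE 0.29, adjusted p = 3.68e-04, limma). The difference was much alike in the 3 mice, at 2.26, 2.54 and 2.24 on the log2 scale.

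*Serpine2* encodes protease nexin-1, a secreted serpin that inhibits thrombin as well as uPA and tPA. It lies on chromosome 1 (mm9, 79790772 to 79855271, minus strand). In the glands its levels were 14.2, 9.75 and 9.03 CPM and in the tumors 260, 293 and 275 CPM, so that the tumors were nearly level with each other and far above every gland. The mean rose from 11.0 ± 2.82 CPM (SD, n = 3) to 276 ± 16.4 CPM (log2FC 4.61, SE 0.19, adjusted p = 1.67e-06, limma). The log2 difference within mice was 4.15, 4.84 and 4.85, and only 1.30% of all genes had a larger log2FC.

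*Serpinb2* encodes plasminogen activator inhibitor 2, a clade B serpin that is largely kept inside cells and is known from keratinocytes and activated macrophages. Its locus is also on chromosome 1 (mm9, 109408000 to 109432055, plus strand). The glands held 2, 2 and 0 fragments (0.407, 0.330 and 0 CPM), all under the floor, whereas the tumors held 216, 575 and 648 fragments (40.2, 75.4 and 97.1 CPM). *Serpinb2* was thus detected in every tumor and in no gland. Against the mean floor of the 3 glands, the tumor mean of 70.9 ± 28.7 CPM (SD, n = 3) was at least 140-fold higher (adjusted p = 6.82e-06, limma). The fitted log2FC of this gene depends on the pseudocount and is no bound. Of its 2349 exon bases, 291 (12.4%) are shared with exons of *Serpinb10-ps* on the same strand, and a fragment in that stretch cannot be assigned with certainty. *Serpinb10-ps* had 0.610, 1.32 and 1.50 CPM in the glands and 70.7, 40.5 and 34.6 CPM in the tumors, an order of the tumors opposite to that of *Serpinb2*. The exons of the other 4 members overlapped no other gene, and 0 other protein-coding genes had a transcript at least 95% identical to a member over 100 bp or more.

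The sequence just upstream of the transcription start is shown for the members that rose together and have a promoter entry in RefSeq, *Plaur*, *Serpine2* and *Serpinb2* (3 of the 5). *Plau* and *Plat* are not shown. The sequences are those of the RefSeq promoter table (GRCm38.p6), each matched to 1 place in mm9 and cut where GENCODE annotates an exon. The letters searched, on both strands of the 250 bases before the start, were TGANTCA (the AP-1 site), TGACGTCA (the CRE that ATF family proteins are known to bind), TATAAA (the TATA box) and GGGCGG (the GC box), and matches are in capitals.
Plaur, chr7:25247252-25247501, plus strand: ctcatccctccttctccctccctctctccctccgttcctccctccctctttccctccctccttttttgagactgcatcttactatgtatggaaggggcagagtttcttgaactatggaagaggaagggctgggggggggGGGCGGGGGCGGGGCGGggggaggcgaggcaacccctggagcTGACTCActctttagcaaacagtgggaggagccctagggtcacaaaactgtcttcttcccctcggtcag
Serpine2, chr1:79855272-79855490, minus strand: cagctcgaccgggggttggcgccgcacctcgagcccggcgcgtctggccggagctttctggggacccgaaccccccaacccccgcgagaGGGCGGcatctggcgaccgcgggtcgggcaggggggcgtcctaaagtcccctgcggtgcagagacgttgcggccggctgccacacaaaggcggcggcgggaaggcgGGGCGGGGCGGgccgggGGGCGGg
Serpinb2, chr1:109407750-109407999, plus strand: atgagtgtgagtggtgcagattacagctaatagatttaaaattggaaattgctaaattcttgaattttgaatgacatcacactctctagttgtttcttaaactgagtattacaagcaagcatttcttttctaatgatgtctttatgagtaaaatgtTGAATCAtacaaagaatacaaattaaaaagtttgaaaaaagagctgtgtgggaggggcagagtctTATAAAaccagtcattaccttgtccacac

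The 3 promoters differ in composition. The *Serpine2* window is 78.8% G and C with 34 CpG, that of *Plaur* is 59.6% with 6 CpG, and that of *Serpinb2*, from the upstream one of 2 listed starts, is 32.4% with 0 CpG. The *Plaur* window holds TGACTCA beginning 69 bases before the start and 3 GC boxes, beginning 111, 105 and 100 bases before it, of which the 2 nearest the start share a base. The *Serpinb2* window holds TGAATCA at 94 bases and TATAAA at 29 bases before the start. The 250 bases of *Serpine2* hold 6 GC boxes, the 2 nearest the start within the part not printed. Those beginning 55 and 50 bases before the start share a base. TGACGTCA was in none of these windows. Among 32851 RefSeq promoter windows of the same length, 6.75% held the AP-1 letters, 1.55% the CRE, 12.4% the TATA box and 32.7% the GC box. These are matches of letters, and binding was not measured.

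Levels were set side by side after division by the length of the exons, as CPM per kb. In the glands the order was *Plau* (12.5 ± 5.43 CPM per kb, SD, n = 3), *Plat* (4.30 ± 3.33), *Serpine2* (2.87 ± 0.74), *Plaur* (2.58 ± 0.95) and *Serpinb2* (0.10 ± 0.09). The ranges of neighbors in this order overlapped, except that *Serpinb2* lay under *Plaur* in every gland. In the tumors the order was *Serpine2* (72.1 ± 4.29), *Plau* (54.6 ± 13.0), *Serpinb2* (30.2 ± 12.2), *Plaur* (14.3 ± 3.58) and *Plat* (12.7 ± 2.10). There, *Serpine2* overlapped *Plau*, *Serpinb2* overlapped *Plaur* and *Plaur* overlapped *Plat*, while *Plau* and *Serpinb2* did not overlap. These are ranges over libraries. Within each single tumor *Serpine2* lay above *Plau* and *Serpinb2* above *Plaur*, but *Plaur* lay under *Plat* in T11640. *Plau* lay above *Plat* within each gland. The activator *Plau* thus led the members in the glands, and the serpin *Serpine2* did so in the tumors. uPA transcripts were more abundant than those of their receptor in every library, with a *Plau* to *Plaur* ratio per kb of 2.79, 9.61 and 3.86 in the glands and 3.47, 4.29 and 3.73 in the tumors.

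The share of the member serpins was higher in every tumor than in every gland. Of the summed CPM per kb of *Plau*, *Plat*, *Serpine2* and *Serpinb2*, both serpins together made up 31.8%, 9.65% and 12.2% in the glands and 61.3%, 62.3% and 57.9% in the tumors. Among these genes alone, activator transcripts were in the majority in every gland and serpin transcripts in every tumor. The inhibitor gene *Serpini1* is no member and was left out of these sums. It had 11.0, 8.92 and 11.9 CPM in the glands, near the level of *Serpine2* there, and 1.86, 2.88 and 2.55 CPM in the tumors. The majority in the glands may therefore not hold for all inhibitors. The log2 ratio of activators to serpins had a mean of 2.21 ± 1.06 (SD, n = 3) in the glands and -0.61 ± 0.14 in the tumors, a difference of -2.82 that was lower in the tumor in 3 of 3 mice. An exact permutation test of 3 against 3 gave p = 0.1 (two-sided), which is the smallest that this design allows. Without gland M11035, the gland with the most serpin transcripts relative to activators, the difference was -3.42, and without gland M11640 it was -2.42. A pseudocount of 0.5 was added to both sums of this ratio, in which the scaling of the library otherwise cancels. The *Plau* to *Plat* log2 ratio was taken from CPM + 0.5, without division by length. It was 1.61, 0.95 and 2.05 in the glands and 1.95, 1.73 and 2.22 in the tumors. These values overlapped, and the difference of 0.43, higher in the tumor in 3 of 3 mice, did not pass an exact permutation test (p = 0.3, two-sided), which does not show that the ratios are alike.

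**Figure D3:**
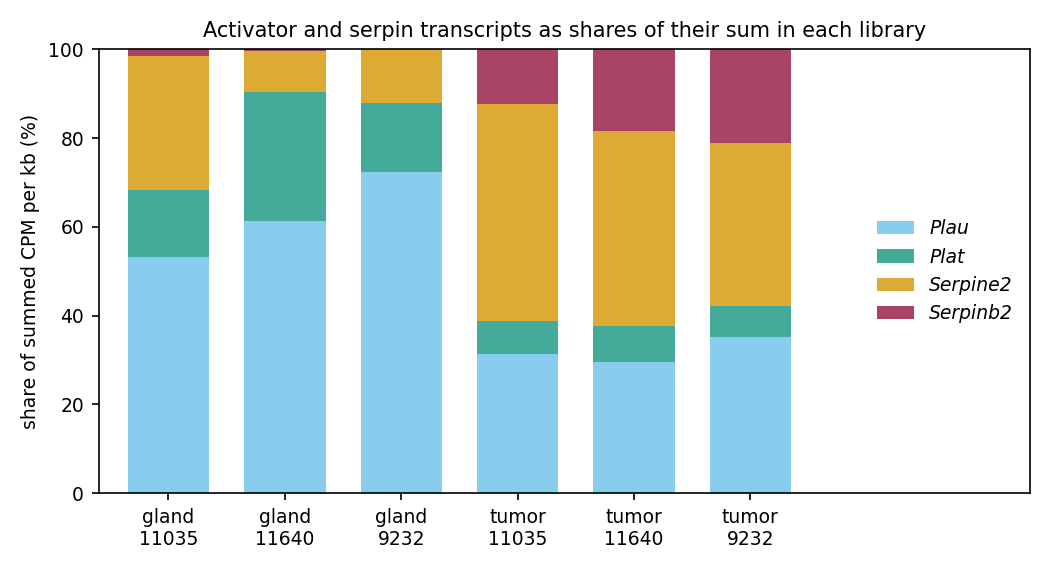
Stacked bars of the share, in percent, that each of *Plau*, *Plat*, *Serpine2* and *Serpinb2* takes of their summed CPM per kb in each library, in the order of the 3 glands and the 3 tumors. The share of *Serpine2* and *Serpinb2* together is between 9.65% and 31.8% in the glands and between 57.9% and 62.3% in the tumors.

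Around the members, 39 other genes of the system were listed. Of the 29 found in the table, 14 were upregulated and 4 downregulated. Of all genes 14.5% and 13.7% were called in these directions, and the median log2FC of the 29 genes was 0.96. Of 2 other inhibitors in the table, 1 was downregulated. *Serpini1*, which encodes neuroserpin, a tPA inhibitor of the nervous system, had 11.0, 8.92 and 11.9 CPM in the glands and 1.86, 2.88 and 2.55 CPM in the tumors. It fell in every mouse, with a log2FC of -1.93 (adjusted p = 4.83e-04, limma). *Pzp*, a broad protease trap of the alpha-2-macroglobulin family, had 1.56 ± 1.05 CPM (SD, n = 3) in the glands and 1.41 ± 0.75 CPM in the tumors and was not called (log2FC -0.04, confidence interval -1.14 to 1.06).

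Of the 3 genes for activation of the zymogens that were in the table, 2 were upregulated. *St14*, which encodes matriptase, a membrane protease that can activate pro-uPA, rose from 10.8 ± 5.55 CPM (SD, n = 3) to 38.4 ± 13.3 CPM (log2FC 1.84, adjusted p = 0.00426, limma). *Tmprss4*, another membrane serine protease, rose from 1.37 ± 1.0 to 5.9 ± 0.63 CPM (1.98, adjusted p = 0.0113). Cathepsin B, from *Ctsb*, was abundant in both tissues, and its log2FC of -0.23 was not called (adjusted p = 0.612). Of 3 plasminogen receptors, *Anxa2* rose from 93.6 ± 41.5 to 363 ± 80.2 CPM (log2FC 2.01, adjusted p = 8.6e-04, limma). Its partner *S100a10* had a log2FC of 0.96 (adjusted p = 0.0171), under the FC threshold, and *Plgrkt* one of -0.35 (adjusted p = 0.14), so neither was called.

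The 13 uPAR partners and clearance receptors moved in both directions, with 7 upregulated and 3 downregulated. *Mrc2*, whose collagen receptor product forms a complex with uPA and uPAR, rose from 7.33 ± 0.76 CPM (SD, n = 3) to 40.6 ± 5.29 CPM (log2FC 2.39, adjusted p = 3.04e-05, limma). The integrin genes *Itga5*, *Itgav*, *Itgam*, *Itgb5* and *Itgb1* were upregulated, with log2FCs between 1.19 and 2.17, whereas *Itgb3* (-0.40) and *Itgb2* (-0.07) were not called. Endocytic receptors that clear activator-serpin complexes differed among themselves. *Lrp1* rose from 168 ± 47.8 to 370 ± 84.7 CPM (log2FC 1.15, adjusted p = 0.00539, limma), while *Vldlr* fell from 262 ± 86.9 to 78.0 ± 22.3 CPM (-1.73, adjusted p = 0.00136) and *Lrp2* had a log2FC of -2.27 (adjusted p = 0.00632). *Vtn*, which encodes vitronectin, the matrix protein bound by uPAR, had 5.29, 6.77 and 3.97 CPM in the glands and did not pass the floor in any of the 3 tumors, at least 11.4-fold lower (adjusted p = 2.92e-04, limma).

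Of 8 genes for targets of plasmin or the activators, 4 were upregulated and 0 downregulated. The metalloproteinase genes *Mmp13*, *Mmp3* and *Mmp9*, whose zymogens plasmin can help to activate, rose by log2FCs of 6.54, 3.98 and 3.54 (adjusted p = 7.8e-06, 6.57e-04 and 9.07e-06, limma). *Fn1*, the gene of fibronectin, rose from 323 ± 209 CPM (SD, n = 3) to 1737 ± 216 CPM. *Hgf* and *Tgfb1*, whose products are activated by proteolysis, had log2FCs of 0.39 and 0.14 and were not called, and neither were the fibrinogen genes *Fgb* and *Fgg*.

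**Figure D4:**
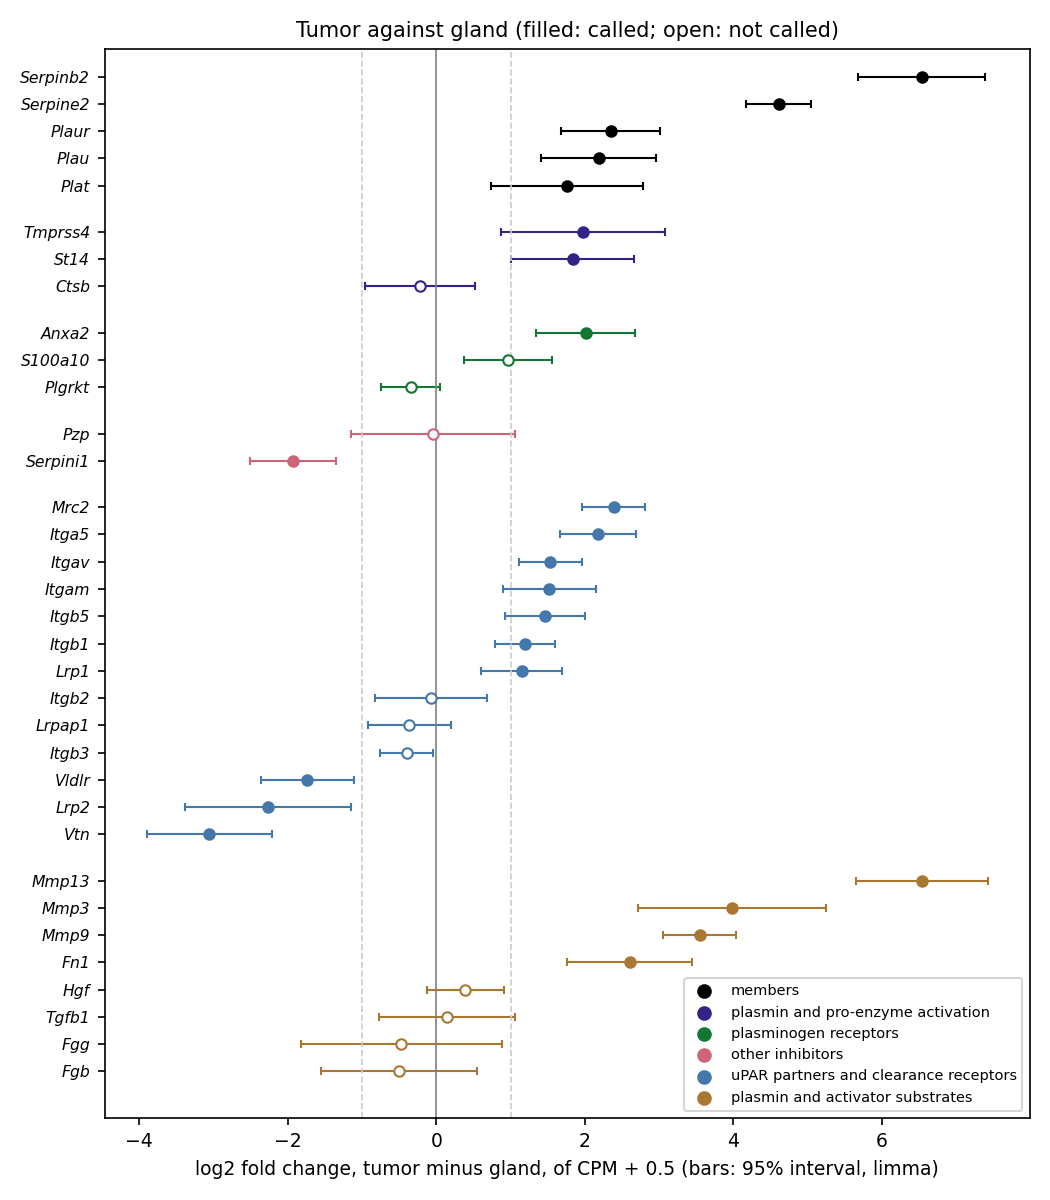
Log2 fold change of tumor against gland for the 5 members and the 29 other listed genes, on log2(CPM + 0.5), with confidence intervals from limma, filled points for called genes and dashed lines at the FC threshold. All 5 members lie to the right of 0, as does *Mmp13* at 6.54, while *Serpini1*, *Vldlr*, *Lrp2* and *Vtn* are the called genes on the left. The values of *Serpinb2* and *Vtn*, which were at or under the floor in 1 tissue, depend on the pseudocount.

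Markers of cell types that can express these genes moved in several directions beside the members, and their part in the results was not tested. The 7 fibroblast markers summed to 877, 3973 and 1745 CPM in the glands and to between 5529 and 6069 CPM in the tumors. Among them, 3 were upregulated and 1 was downregulated. Their order in the glands was that of *Plat* and *Plau* there. The mast cell markers (27.0, 114 and 65.4 CPM) and the squamous markers (13.4, 15.7 and 14.4 CPM) had this gland order too. The other lists did not. In the tumors the mast cell markers summed to at most 13.3 CPM. The 8 endothelial markers summed to between 362 and 495 CPM in the glands and between 223 and 296 CPM in the tumors. Of them, 0 were upregulated, 2 were downregulated and 6 were not called. Of 7 macrophage markers, 1 was upregulated, and the sums of 234 to 817 CPM in the glands and 428 to 681 CPM in the tumors overlapped. The 6 neutrophil markers in the table summed to 64.1 to 155 CPM in the glands and 817 to 1400 CPM in the tumors. Most of the tumor sums came from *S100a9* (468, 692 and 888 CPM) and *S100a8* (183, 182 and 226 CPM). With *Cxcr2* and *Csf3r*, these made 4 upregulated genes, and 1 was downregulated. The downregulated gene was *Mpo*, a defining granule gene, which had at most 3 fragments in each tumor, and the granule gene *Camp*, at 1 to 5 fragments in the tumors and 4 to 17 in the glands, was not called. All 7 squamous keratinocyte markers in the table were upregulated, from sums of 13.4 to 15.7 CPM in the glands to between 1306 and 2622 CPM in the tumors. The lowest of these tumor sums was in T11035, which also had the lowest *Serpinb2* of the tumors. That match is not particular to squamous markers. T11035 also had the lowest tumor sum of the basal epithelial, fibroblast, endothelial, pericyte and smooth muscle, macrophage, neutrophil, mast cell and T cell lists. It did not in the adipocyte, luminal epithelial, B cell and skeletal muscle lists. The squamous gene *Lor* was at 0 in all 3 glands. Without the 2 glands that held skeletal muscle transcripts, which leaves 1 gland that is assumed to vary like the tumors, all 5 members were still called (an alternative chosen after seeing the data), with log2FCs of 1.92 for *Plau*, 2.01 for *Plat*, 1.86 for *Plaur*, 4.86 for *Serpine2* and 7.07 for *Serpinb2*.

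The genes with the pattern most like that of each member were found by the root mean square difference of log2(CPM + 0.5), centered on each gene's mean over the 6 libraries, among 14711 other genes whose mean reached 1 CPM. The tissues and mice shared by all genes enter this measure, so it is a description. *Plau* was nearest to *Tspan11*, *Crispld2* and *Adamts7*, with differences of 0.099, 0.104 and 0.119 on the log2 scale. *Plat* was nearest to *Itga11*, a collagen-binding integrin gene, at 0.057, followed by *Prss23* and *Mfap5* at 0.198 and 0.210, and these also had their highest gland value in M11640. *Plaur* was nearest to the chemokine gene *Ccl2* at 0.074, to *Tnfrsf12a* at 0.098 and to *Gpr35* at 0.108. *Serpine2* was nearest to the collagen gene *Col11a1* at 0.158, to *1810041L15Rik* at 0.187 and to *Sprr2k*, an epidermal cornified envelope gene, at 0.219. *Sprr2k* had 0 CPM in every gland, so its closeness to *Serpine2* depends on the pseudocount. *Serpinb2* was nearest to *Gpr115*, *Tmprss11g* and *Lrrc15*, at 0.168, 0.223 and 0.277. Like *Serpinb2*, *Gpr115* and *Tmprss11g* were under the floor in every gland, where the pseudocount makes up most of the value compared. No member was among the 3 nearest genes of another. The closest pair of members was *Plau* and *Plat* at 0.412, and the farthest was *Plat* and *Serpinb2* at 2.49.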

How the data were processed

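Sequencing fragments of the 6 libraries had been aligned to mm9 with TopHat2 (2.0.3) and assigned to RefSeq genes with HTSeq (0.5.3p9), per the methods and the submitters' processing notes. Genes under 10 fragments in total had been dropped. The authors deposited a signal for each gene, CPM on the effective library size of edgeR (3.6.1). Each value could be turned back into a whole number of fragments (100% within 0.01 fragments).

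Genes were tested with limma (3.58.1, R 4.3.3) on log2(CPM + 0.5), with an intensity trend, without blocking, at the thresholds of the methods. edgeR (4.0.16) and DESeq2 (1.42.0) on the recovered fragments were alternatives. limma with and without the mouse as a block, edgeR and DESeq2 without it were tested on simulated data. Tumor and gland of the same number come from the same mouse, which pairs them. Their deviations from the tissue means correlated across 14712 genes, which are not independent, with r = 0.107, 0.151 and 0.0168 for the pairs of T11035, T11640 and T9232, respectively. For tumor and gland of different mice, r ran from -0.168 to 0.0405, and the r of the T9232 pair lay within that range. No 2 libraries of a tissue were copies, with a lowest chi-square per degree of freedom of 13.0. Exon lengths and positions came from GENCODE vM1 (mm9) and identity from BLAST (2.17.0). *Plgrkt* was found under its older symbol *5033414D02Rik*.

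Members and lists were chosen with earlier results of these data known. Genes named are the members, the 39 listed genes of the system, cell type markers and, for each member, the 3 genes nearest in pattern. Of the genes first listed, 1 is not reported here and enters no count of the list. *Serpinb10-ps* was named after its values were seen, because its exons overlap a member. Depth, with 4750989 to 7806908 fragments per library, limits the precision of low genes. The thresholds are an adjusted p of 0.05 and an absolute log2FC of 1. Alternative pseudocounts, scalings, filters, tests and left-out libraries were tried.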

Additional observations from a re-analysis of the deposited data

How the results depend on the processing

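*Plau*, *Plaur*, *Serpine2* and *Serpinb2* kept their direction and their call under all 17 alternatives, and *Plat* kept its direction under all 17 and its call under 15. Leaving out 1 library at a time gave log2FCs of 1.31 to 2.32 for *Plat*, and its call was lost without tumor T11640 or T9232, which leaves fewer samples. With the mouse as a replicate block, 4298 genes were called beside 4309, *Plat* had an adjusted p of 0.00513 (limma), and the block changed no call of a member. Over all alternatives the log2FC was 1.78 to 2.46 for *Plau*, 1.86 to 2.59 for *Plaur* and 4.49 to 4.86 for *Serpine2*. For *Serpinb2*, with 0 to 2 fragments per gland, it ran from 5.78 with pseudocount 1 to 8.32 with DESeq2, and depth sets the lower bound of its fold. The listed genes gave 17 to 19 calls beside 18, and all genes 3206 to 4462. The difference between tumor and gland stayed between -3.42 and -2.42 for the activator to serpin log2 ratio and between 0.14 and 0.69 for the *Plau* to *Plat* log2 ratio. Designs of 3 against 3 cannot go below an exact p of 0.1, nor those of 3 pairs below 0.25.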
